A study of Mus musculus with 15 samples.

Results

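The cytosolic ribosomal protein genes were followed in RNA-seq of primary mouse hippocampal neurons, nerve cells taken from the hippocampus of mice and grown in culture. Members were the rows of the count table whose symbol begins with Rpl, Rps or Rplp and a number, or is Rpsa, without the Rps6k kinases, Rps19bp1, Rpl7l1 and copies marked -ps. Of 24498 genes in the table, 87 matched this name rule and 82 had at least 150 counts over the 15 libraries, 49 of the large subunit and 33 of the small. All 82 were among the 15075 genes tested. Just under the minimum lay Rpl32l with 46 counts, Rpl39l with 33 and Rpl10l with 1, while Rpl26 and Rps27rt had 0. Just over it lay Rpl30 with 258, Rpl3l with 280, Rpl34 with 428 and Rps27 with 888.

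Acetate reaches the blood when alcohol is broken down, and the study used it to model heavy drinking in culture. ACSS2 makes acetyl-CoA from acetate. The neurons had been kept in neurobasal medium with B27 and differentiated for 7 days, and were then treated for 24 h. DMSO vehicle (4 libraries) received medium and the solvent of the inhibitor. DMSO acetate (4) received 5 mM acetate and the solvent. Inhibitor vehicle (3) received 20 µM of an ACSS2 inhibitor and medium, and inhibitor acetate (4) received both agents. A library is called by its group and replicate, such as DMSO acetate 2. The labels give no strain, sex or age of the mice and do not say whether replicates were separate cultures, and a p-value then reflects the spread among these libraries alone, which may be technical. Gene counts were 19688231 to 39234799 per library.

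A ribosome is built from ribosomal RNA and a fixed set of ribosomal proteins, and each subunit takes 1 copy of nearly every protein. The large subunit joins the amino acids and carries the stalk, which recruits translation factors, while the small subunit binds the mRNA and reads it. In mammals the mRNAs of these proteins share a start, a run of pyrimidines at the 5′ end called the TOP motif, through which mTORC1 signalling sets their translation. Neurons hold ribosomes in dendrites and axons as well as in the cell body.

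Promoters are shown here for members that led the acetate comparison, for members that did not pass its test, and for Rpl22l1, which led the inhibitor comparisons. Each window runs from 40 bases before to 20 bases from the transcription start on, in build GRCm38.p6 from RefSeq, with pyrimidine runs of at least 8 bases in capitals.
Rpl38, chr11:114668540-114668599, plus strand: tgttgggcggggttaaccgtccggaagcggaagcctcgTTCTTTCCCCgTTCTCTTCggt
Rps10, chr17:27635225-27635284, minus strand: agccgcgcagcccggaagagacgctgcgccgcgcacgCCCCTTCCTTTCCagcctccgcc
Rpl35, chr2:39005112-39005171, minus strand: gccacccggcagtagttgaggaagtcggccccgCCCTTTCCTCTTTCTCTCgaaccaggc
Rps15, chr10:80292391-80292450, plus strand: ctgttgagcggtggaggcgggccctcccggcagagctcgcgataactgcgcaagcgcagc
Rps6, chr4:86857348-86857407, minus strand: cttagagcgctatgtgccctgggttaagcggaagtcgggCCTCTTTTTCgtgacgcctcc
Rpl4, chr9:64173347-64173406, plus strand: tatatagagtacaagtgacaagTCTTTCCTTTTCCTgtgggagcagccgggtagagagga
Rps4x, chrX:102189372-102189431, minus strand: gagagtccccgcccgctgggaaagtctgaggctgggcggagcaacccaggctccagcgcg
Rpl22l1, chr3:28805468-28805527, plus strand: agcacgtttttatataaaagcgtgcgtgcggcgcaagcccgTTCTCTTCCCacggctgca
A start was given for 60 members. A run of at least 8 pyrimidines within 20 bases of the start was present in 28 of 60 members (46.7%) and in 15.4% of 16514 genes. The letters CCGGAAGT or ACTTCCGG, an ETS-type motif, searched on both strands in 250 bases before and 50 after the start, occurred in 16.7% of member promoters and 5.61% of all. AAGATGGC or GCCATCTT, a YY1-type motif, occurred in 6.67% and 3.32%, and TATAAA or TTTATA in 6 of 60 members and 12.9% of all. The windows of Rpl38, Rps10 and Rpl35 hold a run, and so do those of Rps6, Rpl4 and Rpl22l1. Those of Rps15 and Rps4x hold none. Neither do those of Rpl37, Rps2 and Rps19, which are not printed and also led the acetate comparison.

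Ribosomal protein genes took between 2.62% and 3.37% of the gene counts of a library. In DMSO vehicle the share was 2.76%, 2.81%, 2.90% and 2.89%, and in DMSO acetate 2.83%, 3.37%, 3.23% and 3.22%. In inhibitor vehicle it was 2.91%, 3.22% and 2.73%, and in inhibitor acetate 2.80%, 2.63%, 2.62% and 2.64%. The counting error is small beside these differences: the exact 95% interval of the share of DMSO vehicle 1 ran from 2.75% to 2.77%, and such intervals cover counting error only. DMSO acetate 1 lay with the vehicle libraries rather than with the other DMSO acetate libraries. Inhibitor vehicle 2 lay with the upper DMSO acetate libraries. Inhibitor acetate had the lowest mean share, 2.67% ± 0.084 (SD, n = 4), against 2.84% ± 0.066 (n = 4) in DMSO vehicle, 3.17% ± 0.233 (n = 4) in DMSO acetate and 2.95% ± 0.246 (n = 3) in inhibitor vehicle.

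Both subunits had the same order of group means. Large subunit genes took 1.63% ± 0.0402 of the gene counts in DMSO vehicle (SD, n = 4), 1.78% ± 0.127 in DMSO acetate (n = 4), 1.68% ± 0.122 in inhibitor vehicle (n = 3) and 1.52% ± 0.0457 in inhibitor acetate (n = 4). Small subunit genes took 1.21% ± 0.0268, 1.39% ± 0.106, 1.27% ± 0.125 and 1.16% ± 0.0384 in the same groups. The counts of the large subunit over those of the small gave a ratio that does not depend on how libraries are scaled. It was 1.32, 1.35, 1.34 and 1.34 in DMSO vehicle and 1.297, 1.28, 1.28 and 1.28 in DMSO acetate, so these groups did not overlap. In inhibitor vehicle it was 1.35, 1.28 and 1.33, with inhibitor vehicle 2 the lowest of all 15 libraries. In inhibitor acetate it was 1.302, 1.31, 1.30 and 1.32, between the DMSO groups apart from inhibitor acetate 4, which overlapped DMSO vehicle.

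**Figure D1:**
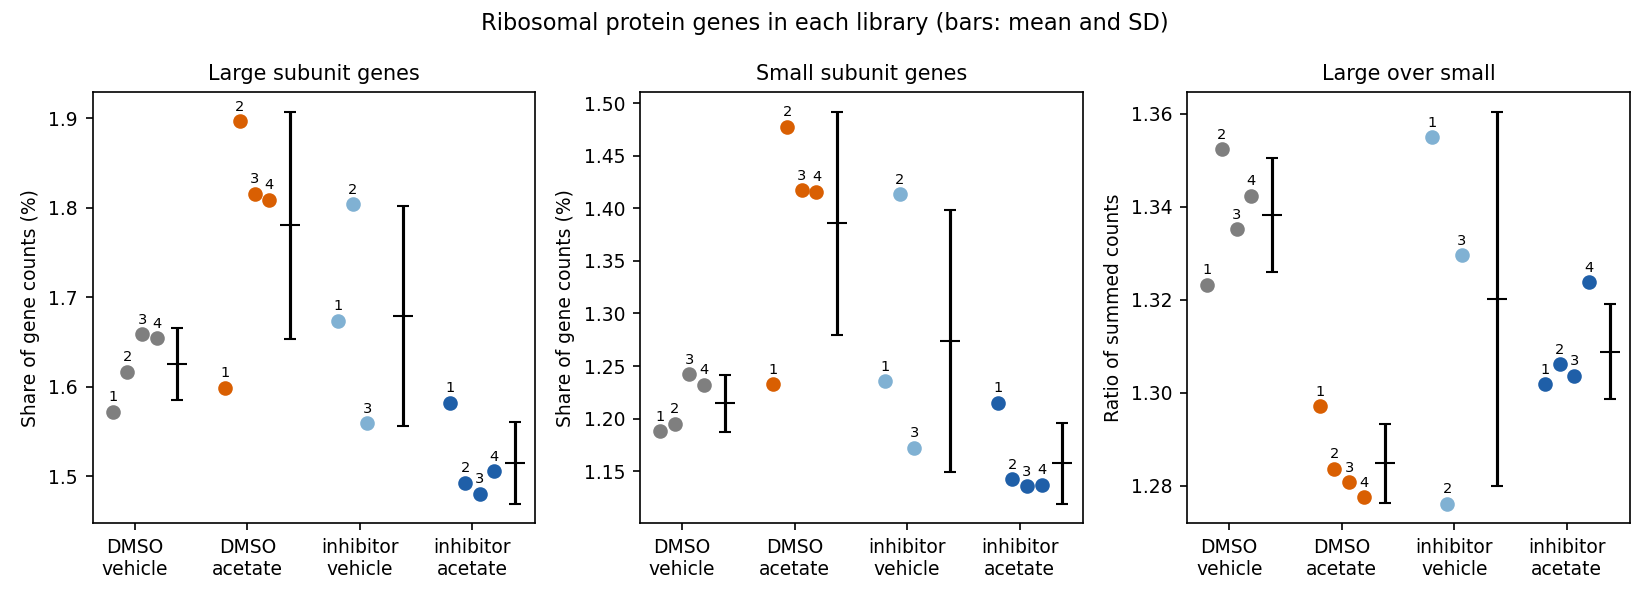
Share of a library's gene counts (percent, left and middle) taken by the 49 large and 33 small subunit genes, and the ratio of the summed counts (right), with 1 point per library, numbered by replicate, and a bar for the mean and SD of each group. DMSO acetate 2 has the highest share of both subunits, inhibitor vehicle 2 the lowest ratio, and DMSO acetate 1 sits with the vehicle libraries in share.

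Members ranged widely in level. Per 1000 coding bases, Rpl41, the shortest, with 75 coding bases, stood highest at 11223 CPM (counts scaled to library size by TMM). It was followed by Rplp1 with 3243, Rps29 with 2734 and Rps15 with 2065. The divisor was the coding length alone, while the Rpl41 transcript has 544 bases. Its rank therefore depends on this divisor, and levels per transcript length were not computed. The median of the 80 members with a coding length was 741 CPM per 1000 coding bases. Rpl22l1 and Rpl36al, paralogs of Rpl22 and Rpl36a, stood at 122 and 128. Rps27, Rpl34 and Rpl30 stood at 9.52, 3.33 and 1.99, although each makes a core protein of the ribosome. Most of the Rps27 transcript is also found elsewhere: 98.4% of its stretches of 100 bases occur in other annotated transcripts. Such sharing was common, with over 50% of the stretches shared in 31 of 80 members, and the table counts reads that align to several places in a line of their own, not on genes. Levels of members with shared stretches are therefore uncertain. The shared part was 31.0% in Rpl34 and 32.5% in Rpl30, and 88.9% in Rps12, which stood at 1273 CPM per 1000 coding bases. Why Rps27, Rpl34 and Rpl30 stood low was not tested.

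Reads aligned to several places took 25.0% to 26.0% of the counts of DMSO vehicle libraries and 25.9% to 27.7% of those of DMSO acetate. With the inhibitor they took 24.4% to 29.3% without acetate, highest in inhibitor vehicle 2, and 24.9% to 25.7% with it. Across 76 members averaging at least 4 log2 CPM, the acetate fold without inhibitor had a Pearson correlation of -0.06 with the shared percentage (Spearman -0.06). For acetate with inhibitor it was 0.14 (0.10), and for the inhibitor without acetate -0.223 (-0.295). For the inhibitor with acetate it was -0.03 (-0.03), and for the difference between the acetate responses 0.17 (0.18). These points share libraries, and members are not replicates. Markers of cells other than neurons also differed between groups. No marker of the 6 lists was at 0 throughout a group. All 14 pan-neuronal markers were detected, with a summed level of 6175 to 9534 CPM over the DMSO vehicle libraries, 12025 to 14277 over DMSO acetate, 7133 to 9718 over inhibitor vehicle and 11315 to 12645 over inhibitor acetate. The 15 microglia markers summed to 202 to 925 CPM, 58.2 to 84.99 CPM, 44.1 to 797 CPM and 49.4 to 104 CPM in these groups, and the 11 astrocyte markers to 4551 to 12495, 3595 to 4459, 4297 to 13595 and 3162 to 4727 CPM. The 13 oligodendrocyte markers did not sum lower with acetate, with 340 to 884, 708 to 991, 268 to 1095 and 439 to 1100 CPM. Of 12 tested, 10 fell with acetate without inhibitor and 2 had a fold above 0. The 12 vessel markers summed to 185 to 461 CPM in DMSO vehicle and 49.0 to 67.4 CPM in DMSO acetate. The 11 meninges markers summed to 169 to 781 CPM and 58.1 to 81.5 CPM in these 2 groups. The mean over the astrocyte, oligodendrocyte, microglia, vessel and meninges lists, the non-neuronal score, was 4.53 ± 0.684 log2 CPM in DMSO vehicle (SD, n = 4), 2.298 ± 0.0375 in DMSO acetate (n = 4), 3.70 ± 1.501 in inhibitor vehicle (n = 3) and 2.13 ± 0.156 in inhibitor acetate (n = 4). In inhibitor vehicle 2 it was 1.97. In bulk RNA, fewer cells of a type and less RNA per cell cannot be told apart.

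Sex-linked transcripts differed between acetate and vehicle cultures as well. Xist, the RNA that silences an X chromosome in female cells, stood at 66.1 ± 5.99 CPM in DMSO vehicle (SD, n = 4), 128 ± 9.54 CPM in DMSO acetate (n = 4), 63.9 ± 3.16 CPM in inhibitor vehicle (n = 3) and 149 ± 11.8 CPM in inhibitor acetate (n = 4). Eif2s3y, a Y-linked gene, stood at 18.3 ± 0.784, 10.3 ± 0.592, 18.1 ± 3.59 and 11.4 ± 0.447 CPM in the same groups. The labels do not say whether vehicle and acetate cultures were plated from the same mice. In every acetate fold given here, acetate and such a difference between cultures cannot be told apart.

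The first comparison asked how acetate changed these genes in cultures without inhibitor. In edgeR (quasi-likelihood test, p adjusted by Benjamini-Hochberg over all genes tested), 66 of 82 members rose and 0 fell, with a median log2 fold of 0.38 against -0.03 over all genes tested. Scaling the libraries on the pan-neuronal markers in place of TMM turned this direction, to 0 risen, 74 fallen and a median of -0.50. There the median over all genes shifted by -0.89, and relative to it the members were 0.41 higher, as under TMM. Of all genes tested, 23.7% rose and 27.5% fell; 1 member was lower at an unadjusted p under 0.05, and DESeq2 called 0 lower. Large and small subunit genes gave close values: 39 of 49 rose with a median of 0.37, and 27 of 33 with a median of 0.40.

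The members with the highest folds came from both subunits. Rpl38, a large subunit protein, stood at 229, 190.2, 212 and 213 CPM in DMSO vehicle and at 291, 399, 329.9 and 358 CPM in DMSO acetate. The groups did not overlap, and DMSO acetate 1 was the nearest to vehicle. Its log2 fold was 0.71 (SE 0.14, adjusted p = 0.000957) in edgeR. Rps10, a small subunit protein, stood at 165, 142, 169 and 185 CPM with vehicle and 239, 303, 234 and 268 CPM with acetate, again without overlap, a fold of 0.66 (SE 0.09, adjusted p = 8.25e-05) in the same test. Rps15, which sits near the site where the small subunit reads the mRNA, went from 717 ± 40.9 CPM to 1129 ± 118 CPM (SD, n = 4 each), a fold of 0.66 (SE 0.12). On pan-neuronal scaling the folds of Rpl38, Rps10 and Rps15 turned to -0.17, -0.23 and -0.22. Other leading large subunit genes were Rpl37 with 0.64 (SE 0.10), Rpl35 with 0.62 (SE 0.12) and Rpl13 with 0.59 (SE 0.10). In the small subunit they were Rps2 with 0.60 (SE 0.10) and Rps19, a protein mutated in Diamond-Blackfan anaemia, with 0.58 (SE 0.12). These 5 also turned negative on pan-neuronal scaling.

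Other members did not pass the test. Rps6, the small subunit protein phosphorylated by S6 kinases, stood at 129, 129, 124 and 119 CPM with vehicle and 115, 123, 139 and 125 CPM with acetate. These groups overlapped, with a fold of 0.01 (SE 0.06, adjusted p = 0.93) in edgeR. Rpl4, a large subunit protein that lines the exit tunnel, stood at 731, 758, 787 and 751 CPM and 731, 782, 769 and 709 CPM, also overlapping, with a fold of -0.02 (SE 0.06). Among members averaging at least 4 log2 CPM, the other low folds that did not pass were those of Rpl10 with -0.07, Rps27l with -0.06, Rps4x with -0.01, Rpl7 with 0.05, Rpl22l1 with 0.05 and Rps9 with 0.10. In all, 16 members did not pass, among them Rpl3l, Rpl30, Rpl34 and Rpl37rt, which had few counts.

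Stalk genes differed in size of fold. Rplp0, the stalk base, stood at 769, 684, 755 and 766 CPM in DMSO vehicle and 856, 958, 856 and 831 CPM in DMSO acetate, a fold of 0.24 (SE 0.08, adjusted p = 0.0213) in edgeR. Rplp1 and Rplp2, the tips of the stalk, had 0.49 (SE 0.10) and 0.53 (SE 0.11); whether they differ from Rplp0 was not tested. All 3 rose under TMM and were lower on pan-neuronal scaling, with -0.65, -0.39 and -0.35. Rpsa, also known as a laminin receptor, had 0.52 (SE 0.10). Rpl5 and Rpl11, which with 5S RNA bind Mdm2 when ribosome assembly fails, had 0.19 (SE 0.07) and 0.33 (SE 0.07), and all of these were negative on pan-neuronal scaling. The Rplp0 call was lost without DMSO vehicle 2 (adjusted p = 0.0713) or DMSO acetate 2 (0.0746). That of Rpl5 was lost without DMSO vehicle 2, 3 or 4, DMSO acetate 2, 3 or 4, inhibitor vehicle 3 or inhibitor acetate 1 or 3, at adjusted p of 0.0502 to 0.113.

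Across libraries, 64 of 82 members were higher in every DMSO acetate library than in every DMSO vehicle library, where 22.1% of all genes tested were. The libraries of DMSO acetate did not contribute equally. Of 77 members averaging at least 4 log2 CPM, DMSO acetate 1 was the lowest of its group in 67 and DMSO acetate 2 the highest in 69. Leaving out any single library left 59 to 66 members risen. With a covariate for the non-neuronal score, 2 members rose and the median was 0.14. The score did not overlap between the groups, with 3.51 to 4.93 in DMSO vehicle and 2.27 to 2.35 in DMSO acetate. This fit therefore cannot part other cells from acetate, and the part of other cells in the result was not tested.

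**Figure D2:**
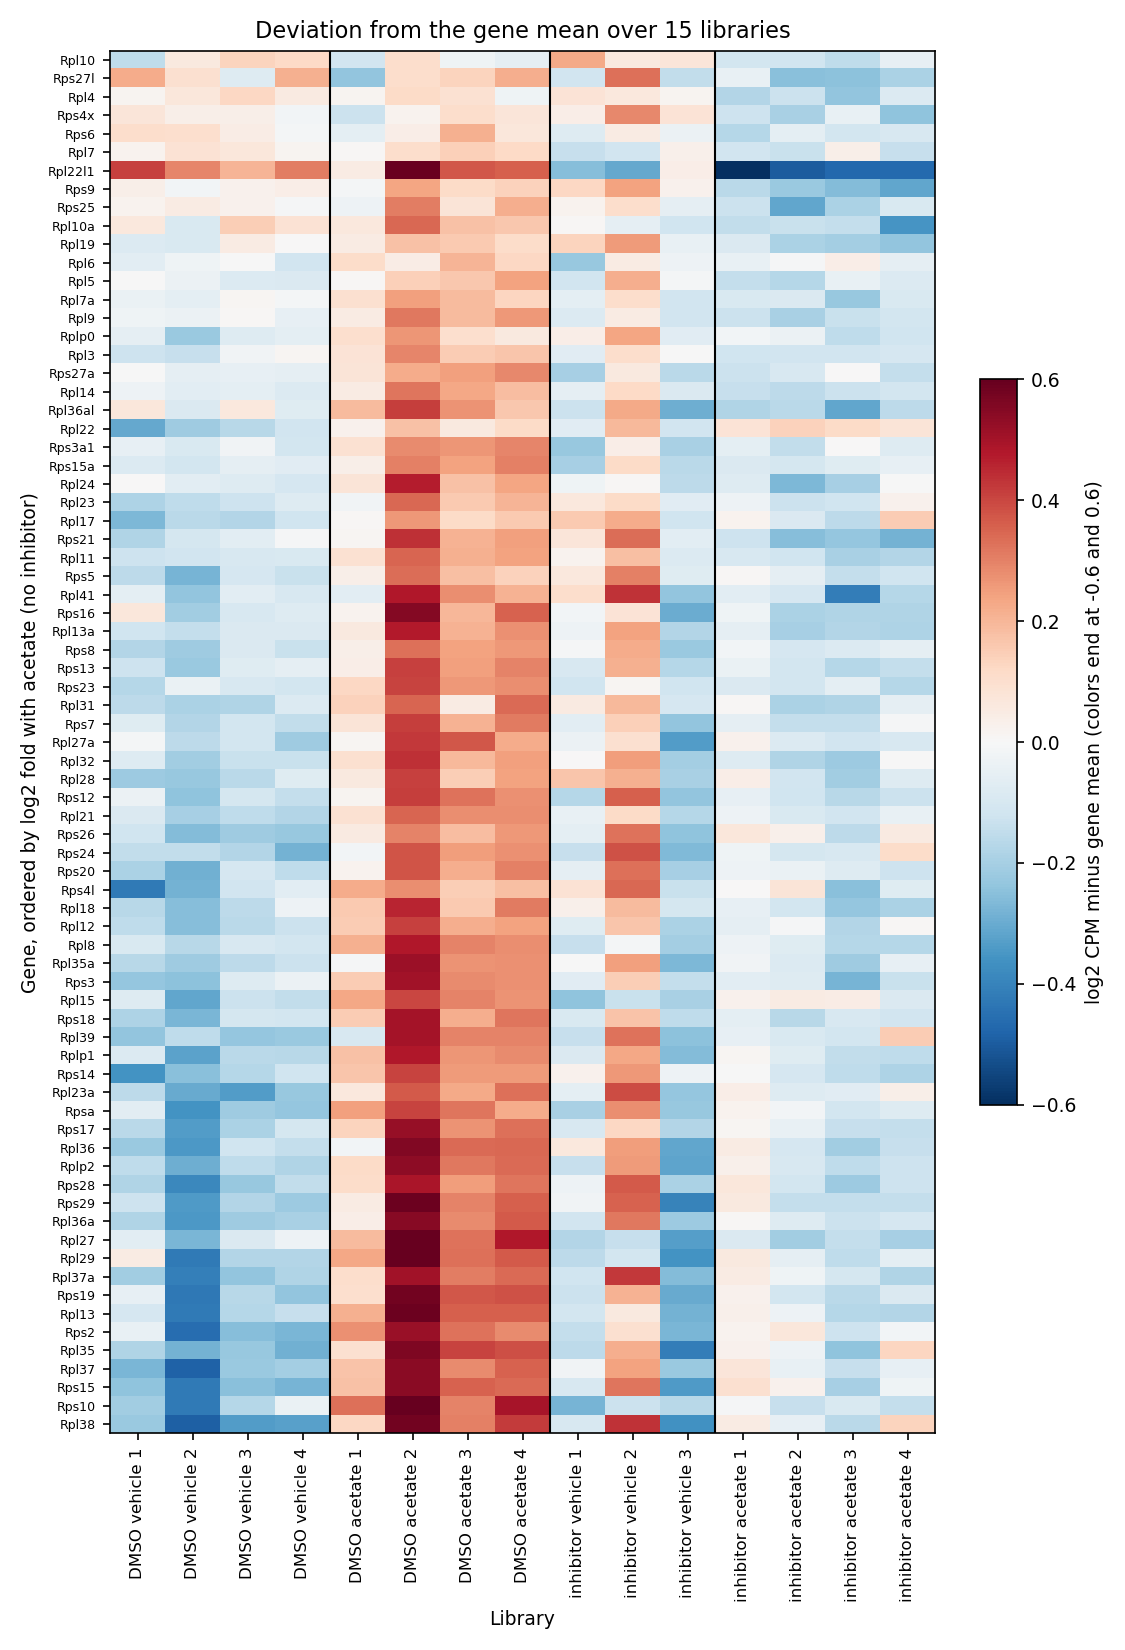
Log2 CPM of 75 members (rows, ordered by acetate fold without inhibitor) minus the gene's mean over 15 libraries, in each library (columns, groups parted by lines). DMSO acetate 2 is the reddest column, and inhibitor vehicle 2 stands above the other inhibitor vehicle libraries. Rpl22l1 is lower in all 7 inhibitor libraries than in any DMSO library, though inhibitor vehicle 3 (44.2 CPM) lies next to DMSO acetate 1 (44.6 CPM). Values are TMM-scaled, and on pan-neuronal scaling the acetate libraries would lie lower.

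With the inhibitor present, few members rose with acetate. In edgeR, 2 of 82 rose and 10 fell, with a median of -0.09 against -0.03 over all genes. Of all genes tested, 14.5% rose and 20.6% fell, so both member shares lay below those of all genes. Large subunit genes gave 2 risen and 6 fallen with a median of -0.10, and small subunit genes 0 risen and 4 fallen with a median of -0.09; at an unadjusted p under 0.05, 0 small subunit genes were higher, and DESeq2 called 0. On pan-neuronal scaling 0 rose and 78 fell, with a median of -0.67. Without inhibitor vehicle 2 the direction of the small subunit turned: its median was 0.05 and that of the large subunit -0.02, and the members stood 0.03 above the median of all genes.

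Rps9, a small subunit protein that binds ribosomal RNA early in assembly, had the lowest adjusted p. It stood at 522, 564 and 486 CPM in inhibitor vehicle and 428, 409, 399.8 and 385 CPM in inhibitor acetate, which did not overlap, a fold of -0.37 (SE 0.07, adjusted p = 0.00241) in edgeR. Rps21, Rpl22l1, Rpl19 and Rps4x fell with folds of -0.35 (SE 0.10), -0.35 (SE 0.11), -0.30 (SE 0.08) and -0.29 (SE 0.08). The fallen members also included Rpl10 with -0.23, Rpl4 with -0.21 and the muscle paralog Rpl3l with -1.80 (SE 0.44), at 1.11 ± 0.146 CPM (SD, n = 3) and 0.314 ± 0.203 CPM (SD, n = 4). The Rpl22l1 call was lost without inhibitor vehicle 3 (adjusted p = 0.165), without inhibitor acetate 1 (0.0704) and without inhibitor acetate 2 (0.0509), and those of Rps21 and Rps4x without inhibitor vehicle 2 (0.0823 and 0.0508), where the Rps21 fold was -0.23. Rpl41, with -0.31 (SE 0.15), did not pass.

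Rpl15, a large subunit protein, rose, from 139, 149 and 143 CPM to 167, 169.8, 169 and 154 CPM without overlap, with a fold of 0.20 (SE 0.07, adjusted p = 0.0351); on pan-neuronal scaling its fold was -0.40. This call was lost without inhibitor vehicle 1 or 3, or inhibitor acetate 1, 2 or 3, at adjusted p of 0.113, 0.0795, 0.0713, 0.0797 and 0.0668. The other risen member, Rpl37rt, with 0.97 (SE 0.32), stood at 7.60, 5.79 and 5.22 CPM and 9.79, 9.18, 7.97 and 21.6 CPM, where inhibitor acetate 4 was far above the rest. Among members averaging at least 4 log2 CPM, the highest after Rpl15 were Rpl29 with 0.16, Rps10 with 0.09, Rpl22 with 0.09, Rps2 with 0.09 and Rpl35 with 0.07, none of which passed. Neither did Rpl34, which had few counts, with 0.57 (SE 0.40). The number risen was 0 without inhibitor vehicle 3 and 1 without inhibitor vehicle 1 or any single inhibitor acetate library. The number fallen was 6 without inhibitor vehicle 1, inhibitor acetate 2 or inhibitor acetate 3.

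**Figure D3:**
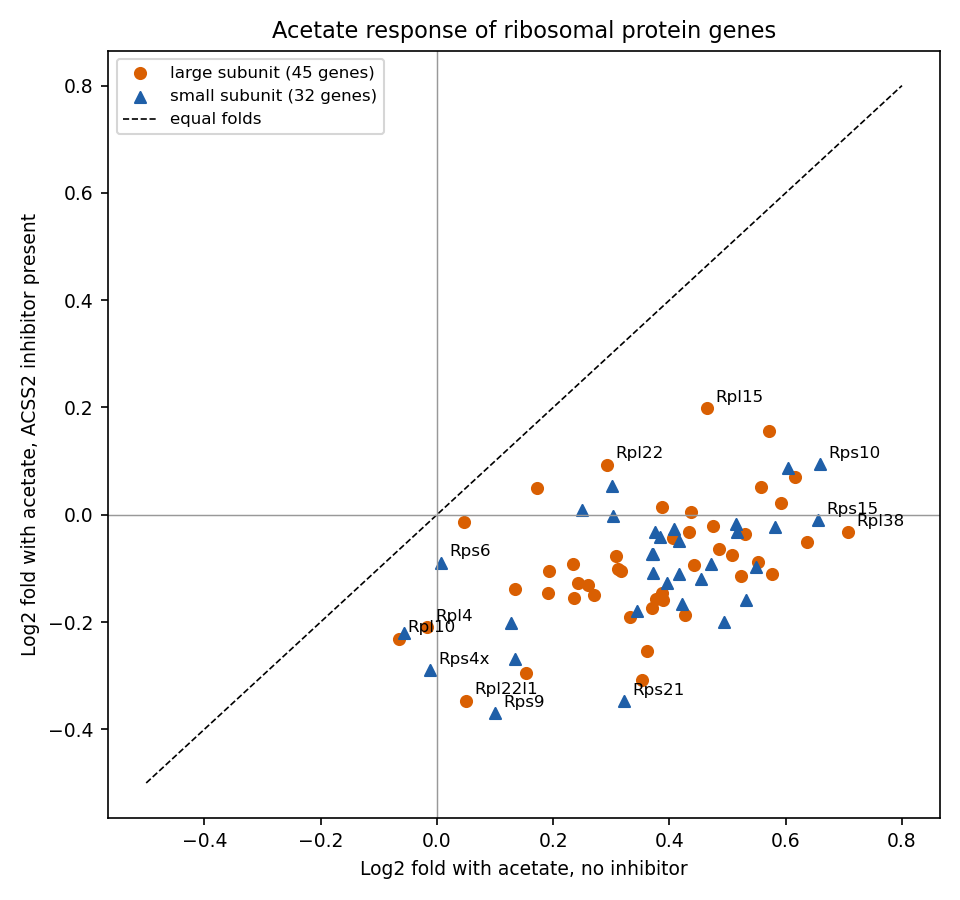
Log2 fold of acetate over vehicle for 45 large and 32 small subunit genes, without inhibitor (x axis) and with it (y axis), with the line of equal folds. Most points lie right of 0 and near or below 0 on the y axis, and all 77 lie below the line; on pan-neuronal scaling the cloud shifts to negative folds on both axes.

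The difference between these responses was tested as an interaction. Its median over the members was -0.47, against 0.00189 over all genes, with 79 of 82 members below 0. In edgeR, 0 members passed in either direction, the lowest adjusted p being 0.0719, while 0.00663% of all genes were lower with the inhibitor at that threshold. At an unadjusted p under 0.05, 70 members were lower and 0 higher, where 12.8% of all genes were lower. DESeq2 called 54 members lower and 0 higher. On pan-neuronal scaling the median was -0.17, 4 members were lower at an unadjusted p under 0.05, and the lowest adjusted p was 0.284. The large subunit had a median of -0.45 and the small one of -0.48. Among members averaging at least 4 log2 CPM, the lowest values of the large subunit were those of Rpl38 with -0.74 (SE 0.21, adjusted p = 0.0754), Rpl37 with -0.69 (SE 0.15), Rpl37a with -0.69 (SE 0.19) and Rpl41 with -0.66 (SE 0.20). Those of the small subunit were Rps14 with -0.69 (SE 0.12, adjusted p = 0.0719), Rps28 with -0.69 (SE 0.17), Rps21 with -0.67 (SE 0.14) and Rps15 with -0.67 (SE 0.18). The scarce Rpl3l had -0.99 (SE 0.58). Nearest to 0 in the large subunit were Rpl7 with -0.06, Rpl6 with -0.12, Rpl10 with -0.17 and Rpl4 with -0.19, and in the small subunit Rps6 with -0.10, Rps27l with -0.16, Rps27a with -0.24 and Rps3a1 with -0.25. Single libraries decided the calls: 53 members passed without inhibitor vehicle 3 and 1 without DMSO vehicle 1, and 16 without DMSO vehicle 1 and inhibitor vehicle 2 together. The all-gene counts for these left-out libraries and for DESeq2 are not given here.

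The inhibitor alone, without acetate, moved 1 member past the threshold. Rpl22l1, a paralog that can take the place of Rpl22 in the large subunit, stood at 57.2, 52.7, 49.7 and 53.3 CPM in DMSO vehicle and 36.1, 34.8 and 44.2 CPM in inhibitor vehicle. All 3 inhibitor libraries lay below all 4 others, and the fold was -0.47 (SE 0.11, adjusted p = 0.0304) in edgeR, where 1.99% of all genes fell. The call was lost without DMSO vehicle 2 (0.0667), inhibitor vehicle 1 (adjusted p = 0.101) or inhibitor vehicle 2 (0.0878), and on pan-neuronal scaling (0.126). The median of the members was 0.14, large 0.13 and small 0.15, and 0 rose, where 3.47% of all genes did. At an unadjusted p under 0.05, 14 of 82 members were higher, as were 2122 of 15075 genes tested. DESeq2 called 4 members risen, and its all-gene count is not given here. On pan-neuronal scaling the median turned to -0.042. Under TMM it followed inhibitor vehicle 2, the highest of its group in 71 of 77 members, and was 0.02 without it. Inhibitor vehicle 3 was the lowest in 63, and without it 12 members rose, with the all-gene count not given here. Among the highest folds, none of them past the threshold, were those of Rpl38 with 0.37 (SE 0.15), Rps4l with 0.33 (SE 0.11), Rps14 with 0.31 (SE 0.09), Rpl37 with 0.30 (SE 0.11), Rps28 with 0.30 (SE 0.12), Rpl23a with 0.31 (SE 0.12) and Rps15 with 0.29 (SE 0.13). Among members averaging at least 4 log2 CPM, the lowest after Rpl22l1 were Rpl7 with -0.12, Rpl10a with -0.11, Rpl27 with -0.10, Rps6 with -0.08, Rps27l with -0.08, Rps27a with -0.06 and Rps3a1 with -0.06. Rpl34, Rpl30 and Rpl37rt, with few counts, had -0.76 (SE 0.40), -0.27 (SE 0.40) and -0.21 (SE 0.32).

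Among acetate cultures, members were lower with the inhibitor than without it. In edgeR, 42 of 82 fell and 0 rose, where 3.42% of all genes fell, and the median was -0.35 against 0.00039 over all genes. At an unadjusted p under 0.05, 70 members were lower and 0 higher, where 1903 of 15075 genes tested were lower and 1412 higher. DESeq2 called 63 members lower and 0 higher, and its all-gene count is not given here. The subunits gave close values, with 24 of 49 large subunit genes fallen and a median of -0.35, and 18 of 33 small subunit genes and a median of -0.36. In 61 of 82 members every inhibitor acetate library lay below every DMSO acetate library, as in 12.4% of all genes. Of the astrocyte, oligodendrocyte, microglia, vessel and meninges markers tested, 0 passed in edgeR in this comparison (1 astrocyte and 2 oligodendrocyte markers were lower and 1 meninges marker higher at an unadjusted p under 0.05), and the non-neuronal scores of the groups lay at 2.27 to 2.35 and 1.95 to 2.31. DMSO acetate is shared with the acetate comparison without inhibitor, so its high libraries entered both.

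Among members averaging at least 4 log2 CPM, Rpl22l1 had the lowest fold. It stood at 44.6, 64.9, 55.8 and 55.4 CPM in DMSO acetate and 28.03, 30.5, 31.1 and 31.2 CPM in inhibitor acetate, a fold of -0.87 (SE 0.10, adjusted p = 0.00106) in edgeR. The scarce Rpl3l had -0.91 (SE 0.43), which did not pass. Over all groups, the 7 inhibitor libraries had Rpl22l1 at or below 44.2 CPM and the 8 DMSO libraries at or above 44.6 CPM. Rpl22 itself stood at 320.1, 355, 327 and 340.0 CPM in DMSO acetate and 332, 345, 341 and 332 CPM in inhibitor acetate, which overlapped, with a fold of 0.01 (SE 0.07), the highest among the 77 members averaging at least 4 log2 CPM. The inhibitor fold of Rpl22l1 was lower with acetate than without by 0.40 (SE 0.15), which did not pass (adjusted p = 0.159 for the interaction in edgeR).

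Rpl27 stood at 147, 215, 161 and 179.7 CPM in DMSO acetate and 122, 111, 117 and 112 CPM in inhibitor acetate, with no overlap and a fold of -0.61 (SE 0.10, adjusted p = 0.00465). Rps10, which led the acetate comparison, stood at 189, 173, 178 and 173 CPM in inhibitor acetate, below all 4 DMSO acetate libraries, with a fold of -0.55 (SE 0.09, adjusted p = 0.00497) in edgeR. Rpl13, Rpl36al, Rps21, Rps19 and Rps3 came next within their subunits, with -0.47 (SE 0.10), -0.46 (SE 0.10), -0.46 (SE 0.10), -0.45 (SE 0.12) and -0.45 (SE 0.09). At the other end of the subunits, besides Rpl22 and among members averaging at least 4 log2 CPM, were Rpl10 with -0.09, Rpl6 with -0.14, Rpl17 with -0.15, Rps4x with -0.17, Rps6 with -0.18, Rps26 with -0.20 and Rps27l with -0.24, none of which passed. Neither did Rplp0 with -0.21, Rpl5 with -0.25 or Rpsa with -0.35, while Rplp1 fell by 0.39, Rplp2 by 0.42 and Rpl11 by 0.37 on the log2 scale.

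The calls of Rpl13, Rpl36al, Rps21 and Rps3 were lost without DMSO acetate 2 or inhibitor acetate 3 (adjusted p of 0.051 to 0.0676), and that of Rpl13 also without inhibitor acetate 4 (0.05). Those of Rps19, Rplp1 and Rplp2 were lost without DMSO acetate 2, 3 or 4 or any inhibitor acetate library (0.0591 to 0.145), and without DMSO vehicle 3 or 4 (0.0525 to 0.0582).

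The number fallen depended on single libraries. It was 8 without DMSO acetate 2, 26 without DMSO acetate 3, 19 without DMSO acetate 4, and 18, 14 and 19 without inhibitor acetate 2, 3 and 4, with medians of -0.40 to -0.29 when any 1 of the 15 libraries was left out. On pan-neuronal scaling 0 fell (Rpl22l1 had an adjusted p of 0.0718) and the median was -0.23, and with a covariate for the non-neuronal score 69 fell.

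**Figure D4:**
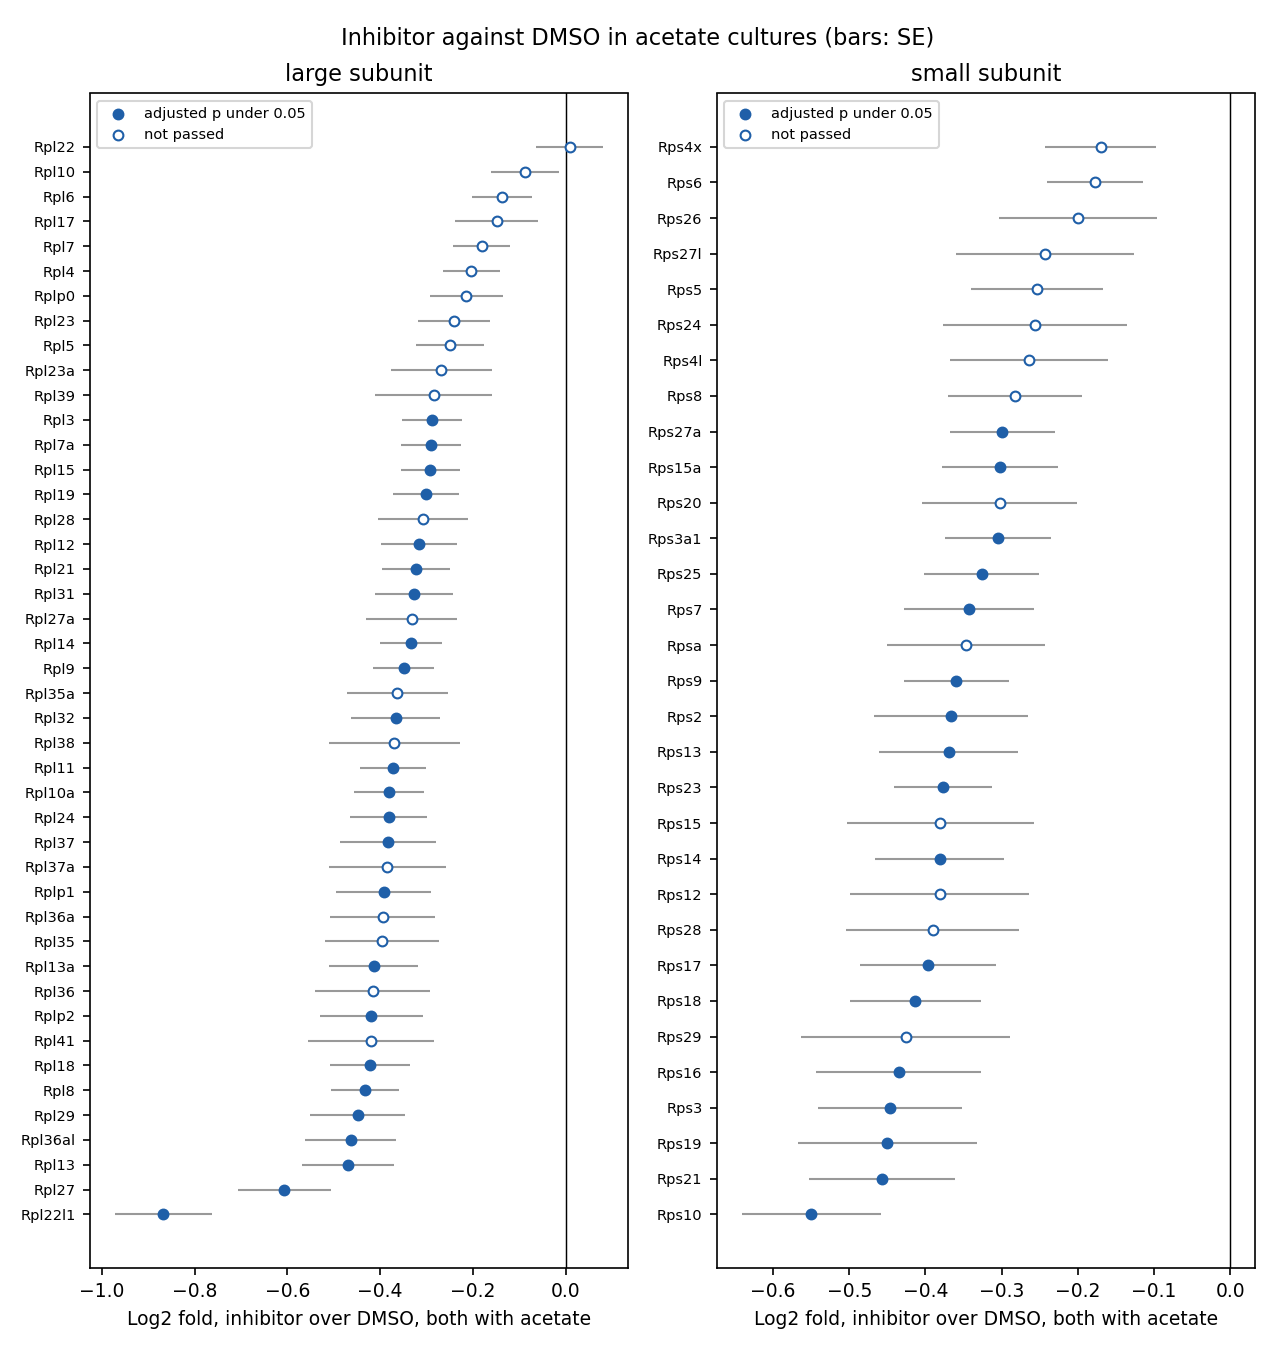
Log2 fold of inhibitor acetate over DMSO acetate (x axis) for 44 large (left) and 31 small (right) subunit genes averaging at least 4 log2 CPM, with SE as bars and filled points where the adjusted p was under 0.05 by edgeR. All but Rpl22 among those drawn lie below 0 under TMM scaling, and Rpl22l1 lies lowest; on pan-neuronal scaling none passed.

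Paralogs and X-linked members were read side by side. Rpl36a and its paralog Rpl36al had acetate folds without inhibitor of 0.55 (SE 0.11) and 0.27 (SE 0.10), and Rps4x and Rps4l of -0.01 (SE 0.07) and 0.42 (SE 0.10). Rpl3, of which Rpl3l is the muscle form, had 0.24 (SE 0.06), and Rps27, at 1.94 ± 0.226 CPM in DMSO vehicle (SD, n = 4), had 0.56 (SE 0.19) where Rps27l had -0.06 (SE 0.12). The folds of Rpl36a, Rpl36al, Rps4l, Rpl3 and Rps27 were negative on pan-neuronal scaling, with -0.33, -0.61, -0.48, -0.65 and -0.33. The Rpl36al call was lost without DMSO vehicle 2 or 4 or DMSO acetate 2 or 3 (adjusted p of 0.0589 to 0.105), and that of Rps27 without DMSO vehicle 2 or DMSO acetate 2 or 3 (0.0565 to 0.0732). Of the 4 X-linked members, Rpl36a and Rpl39 rose under TMM, Rpl39 with 0.47 (SE 0.13) and -0.42 on pan-neuronal scaling, while Rpl10 and Rps4x did not pass. Xist also differed between these groups, as given above, and its part in the X-linked values was not tested.

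Lists of genes around the ribosome gave mixed counts, to be read against the 23.7% of all genes that rose and the 27.5% that fell with acetate. Fau and Rack1, which encode ribosomal proteins under other names, had acetate folds without inhibitor of 0.50 (SE 0.11, adjusted p = 0.00189) and 0.19 (SE 0.06, adjusted p = 0.0208) in edgeR. Of 77 mitochondrial ribosomal protein genes, 48 (62.3%) rose and 0 fell, with a median of 0.29; at an unadjusted p under 0.05, 2 were lower. Translation factors and some other genes with TOP mRNAs, among them Npm1 and Hnrnpa1, gave 7 risen (43.8%) and 1 fallen of 16. They were led by Eef1g, an elongation factor subunit, with 0.42 (SE 0.07, adjusted p = 0.000289), while Eif4b fell, with -0.35 (SE 0.09, adjusted p = 0.00556). RNA polymerase I and its factors, which make ribosomal RNA, gave 1 risen and 4 fallen (33.3%) of 12: Polr1d had 0.49 (SE 0.09, adjusted p = 0.000585) and Ubtf -0.41 (SE 0.09, adjusted p = 0.00257). Ribosome assembly factors gave 6 risen (15%) and 9 fallen (22.5%) of 40, both below the shares of all genes, with Nop10 at 0.63 (SE 0.09, adjusted p = 0.000125) and Nat10, the acetyltransferase of ribosomal RNA, at -0.45 (SE 0.06, adjusted p = 6.06e-05). The mTORC1 list gave 7 risen (30.4%) and 4 fallen (17.4%) of 23, with Lamtor2, part of its lysosomal anchor, at 0.75 (SE 0.09, adjusted p = 2.62e-05). These counts are on TMM scaling; their direction on pan-neuronal scaling was not computed gene by gene, and the all-gene median shifted by -0.89 there.

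Between inhibitor acetate and DMSO acetate, where 3.42% of all genes fell, 13 of 77 mitochondrial ribosomal protein genes (16.9%) fell and 0 rose, with a median of -0.21. Of the assembly factors 7 of 40 (17.5%) fell, led by Bysl with -0.47 (SE 0.08, adjusted p = 0.00725) and Bop1 with -0.50 (SE 0.09, adjusted p = 0.00733). Rack1 fell, with -0.29 (SE 0.06, adjusted p = 0.0192), while Fau had -0.39 (SE 0.11, adjusted p = 0.0506) in edgeR. Of the translation factors and other genes with TOP mRNAs 3 of 16 (18.8%) fell, led by Eef1d with -0.31 (SE 0.06, adjusted p = 0.0127). Of the polymerase I list 2 of 12 (16.7%) fell, Polr1c with -0.34 (SE 0.07, adjusted p = 0.0128) and Polr1d with -0.38 (SE 0.09, adjusted p = 0.0265). In the mTORC1 list Larp1, which binds TOP mRNAs, fell, with -0.31 (SE 0.07, adjusted p = 0.0222), and Rragc rose, with 0.31 (SE 0.08, adjusted p = 0.0302). With the inhibitor present, where 14.5% of all genes rose with acetate and 20.6% fell, acetate gave 1 risen and 5 fallen of 77 mitochondrial ribosomal protein genes, 0 and 9 (22.5%) of 40 assembly factors, 0 and 4 of 12 polymerase I genes and 4 and 2 of 23 mTORC1 genes.

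Ribosomal protein genes are short, and other short genes also had higher folds than long ones. Among genes that are no members, those with under 300 coding bases (265 genes) had a median acetate fold without inhibitor of 0.26, with 49.4% risen, against 0.12 for 1407 genes of 300 up to 600 coding bases and -0.12 for 4927 genes of 1800 or more. The 9 members under 300 coding bases had a median of 0.53, the 45 of 300 up to 600 one of 0.39 and the 19 of 600 up to 900 one of 0.30. In each of these length classes the members stood above the others, whose median at 600 up to 900 bases was 0.02. Between inhibitor acetate and DMSO acetate, the medians of the other genes were -0.17, -0.10 and -0.05 in the 3 shorter classes, and those of the members -0.38, -0.37 and -0.29. Over 76 members, the acetate fold had a Pearson correlation of -0.37 with log2 coding length (Spearman -0.40), and the difference of responses one of 0.51 (0.51); these points share libraries.

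Within DMSO acetate, the libraries had the same order in both sets. The median deviation of the members from their gene means was 0.41 log2 in DMSO acetate 2, 0.27 in DMSO acetate 4, 0.24 in DMSO acetate 3 and 0.08 in DMSO acetate 1, and that of other genes under 300 coding bases was 0.23, 0.16, 0.12 and 0.02. In inhibitor vehicle 2 they were 0.20 and 0.11, and in DMSO vehicle 2 -0.21 and -0.19. The part of transcript length in the members' folds was not tested. Members with a pyrimidine run at the start (26) had a median acetate fold of 0.38 and those without it (31) one of 0.37.

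**Figure D5:**
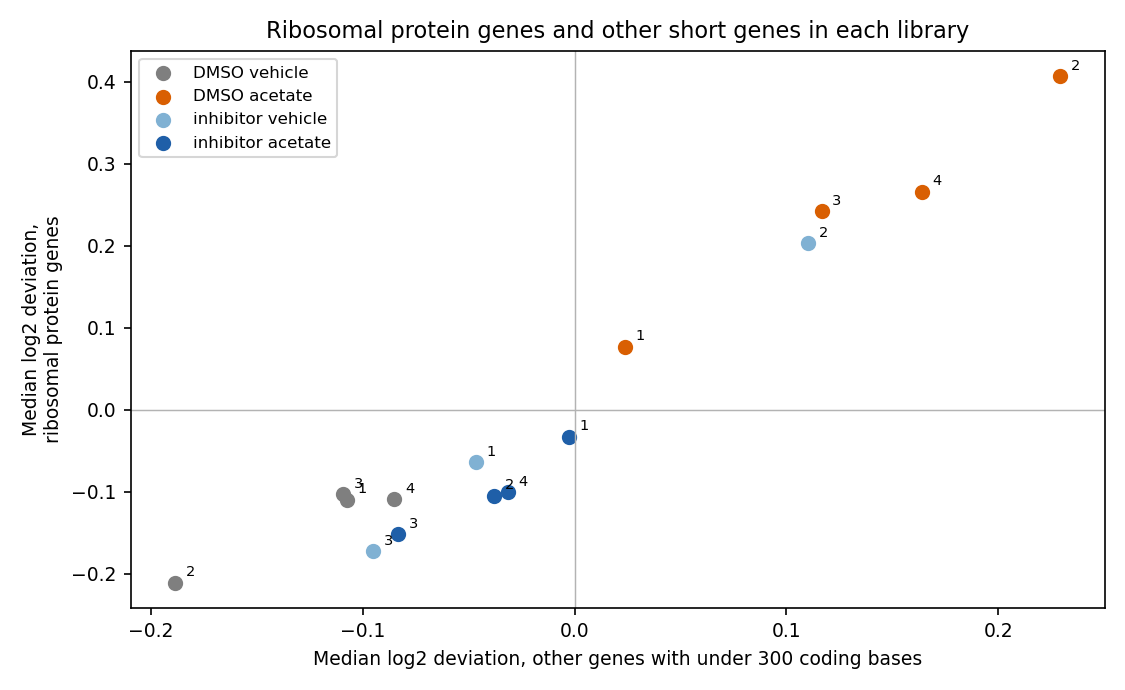
Median log2 deviation from the gene mean over 15 libraries for the members (y axis) and for 265 other genes with under 300 coding bases (x axis), with 1 point per library, coloured by group and marked by replicate number. DMSO acetate 2 lies at the upper end at 0.23 and 0.41, and inhibitor vehicle 2 lies among the DMSO acetate libraries; values are TMM-scaled.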

How the data were processed

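Total RNA was taken up in QIAzol, purified on RNeasy columns and sequenced from NEBNext Ultra II Directional libraries, which keep the strand (per the labels' protocols). The authors deposited raw read counts for each gene symbol, in whole numbers. STAR 2.5.2a, HTSeq 0.6.1p1, DESeq2 and, as the genome, build mm10 are listed per the submitters' processing notes. Annotation, counting mode and strand setting: not given in the sources used here. Genes with near-identical copies or antisense partners are therefore uncertain. The 5 lines that name no gene, 38.9% to 47.4% of a library, were left out.

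The software was R 4.3.3, edgeR 4.0.16 and limma 3.58.1. After edgeR's default expression filter and TMM scaling, all 15 libraries entered 1 quasi-likelihood fit with a mean for each group, and p-values of 15075 genes were adjusted by Benjamini-Hochberg, with a threshold of 0.05. An SE is a fold over the square root of its F. Levels are CPM on the TMM scale; a prior count of 2 went into log2 CPM. Exact binomial intervals are at 95%. DESeq2 1.42.0, other scalings, no filter, a replicate block, a non-neuronal covariate and left-out libraries were alternatives. Steps were tested on simulated data. Libraries of a group differed by at least 4.65 chi-square per gene, so none was a copy of another.

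Members, lists and alternatives were chosen with earlier results of these data known. Named members are the 4 highest and 4 lowest folds per subunit in each comparison (average log2 CPM of at least 4), the stalk genes, Rps6, Rpsa, Rpl5, Rpl11, paralog pairs, X-linked members, and up to 3 genes per other list with the smallest p; further names were chosen after their values were seen. A few genes are counted in these results but not reported here by name. Coding lengths and gene models come from GENCODE M21, where 80 of 82 members matched, and promoters from RefSeq.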

Additional observations from a re-analysis of the deposited data

Results flagged for a closer look

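Of 162 groups of 4 libraries examined, 10 held a library whose gap to its nearest neighbour passed Dixon's 95% limit for its share of the group's range; chance gives such a gap in about 1 in 20 groups. Inhibitor acetate 1 had a member share of 2.80% of gene counts where the other libraries of its group had 2.62% to 2.64%, and a small subunit share of 1.22% (1.215%) where they had 1.14%. Inhibitor acetate 3 stood apart in 3 genes: Rpl7 at 249 CPM against 221 to 225, Rpl36al at 32.6 CPM (32.55) against 35.7 to 36.2, and Rps27 at 1.76 CPM against 2.66 to 2.79. In inhibitor acetate 4, Rpl10a was at 97.5 CPM against 112.5 to 113.7. In DMSO vehicle 2, Rpl39 was at 152 CPM against 143 to 144.5, and Rplp0 at 684 CPM against 755 to 769. Rps27a was at 231 CPM in DMSO vehicle 1 against 222 to 223, and Rps3a1 at 229 CPM in DMSO acetate 1 against 258 to 263.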

How the results depend on the processing

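Of 345 recomputed counts and medians, 297 stayed within the spread of replicates or within 1.5 times of the reported count. This tally includes counts that were 0 and stayed 0, and settings that left out a library outside the comparison. A median near 0 could also change sign within that spread. The tally therefore does not measure how firm the results are. The setting with the widest reach was scaling on the pan-neuronal markers. It shifted the all-gene median by -0.89 for acetate without inhibitor, -0.60 with it and 0.29 for the difference. The shift was -0.16 for the inhibitor without acetate and 0.13 with acetate. On that scaling, acetate without inhibitor gave 0 members risen, 74 fallen and a median of -0.50, and acetate with inhibitor 0, 78 and -0.67. The difference had a median of -0.17, the inhibitor without acetate 0 fallen and a median of -0.042, and the inhibitor with acetate 0 fallen and -0.23. Folds of acetate without inhibitor turned to Rpl38 -0.17, Rpl37 -0.25, Rpl35 -0.26, Rpl13 -0.28, Rpl7 -0.84, Rpl22l1 -0.83, Rps10 -0.23, Rps15 -0.22, Rps2 -0.26, Rps19 -0.29, Rps6 -0.87, Rps9 -0.78, Rplp0 -0.65, Rplp1 -0.39, Rplp2 -0.35, Rpsa -0.36, Rpl5 -0.69, Rpl11 -0.56, Rpl22 -0.60, Rpl36a -0.33, Rpl36al -0.61, Rps27 -0.33, Rps4l -0.48, Rpl3 -0.65 and Rpl39 -0.42. With inhibitor they turned to Rpl15 -0.40, Rpl29 -0.44, Rpl22 -0.49, Rpl35 -0.50, Rps10 -0.50, Rps2 -0.50, Rps3a1 -0.53 and Rps27a -0.58.

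With a covariate for the non-neuronal score, acetate without inhibitor gave 2 members risen and a median of 0.14, with Rpl5 at -0.01 (-0.0126) and Rpl36al at -0.07 (-0.0696); acetate with inhibitor gave 0 risen and a median of -0.26, the difference 36 lower and the inhibitor with acetate 69 fallen. Between DMSO vehicle and DMSO acetate the score did not overlap, so this covariate cannot part other cells from acetate there. DESeq2 called 54 lower for the difference and 4 risen for the inhibitor without acetate. Without a filter on low counts, 1 member rose with acetate and inhibitor. Without DMSO vehicle 1 and inhibitor vehicle 2, the difference had 16 lower, and the inhibitor 0 fallen without acetate and 68 with it. Leaving out each library in turn gave, for acetate with inhibitor, 0 to 2 risen and 6 to 11 fallen; for the difference, 0 to 53 lower; for the inhibitor without acetate, 0 to 12 risen, 0 to 1 fallen and medians of 0.023 to 0.21; and for the inhibitor with acetate, 8 to 62 fallen. All-gene counts under these alternatives are not given here. The causes were not tested.

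Same-numbered libraries of different groups did not deviate together (21 pairs, correlations -0.65 to 0.38, 6 over 0.1; other pairs -0.66 to 0.74), so the numbers were not read as pairs. With the replicate block, acetate with inhibitor gave 0 risen, and the inhibitor without acetate 0 fallen (Rpl22l1 at an adjusted p of 0.0528). Few counts limit the folds of the 5 members with an average log2 CPM below 4, Rpl30, Rpl3l, Rpl34, Rps27 and Rpl37rt. Why their counts were low was not tested.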

Other observations

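Some genes that are no members followed the members closely from library to library. By Pearson correlation of log2 CPM with the summed members over the 15 libraries, which share depth and culture differences, the nearest genes that are no members were Ndufb7 with 0.989, a complex I subunit with 411 coding bases, and Smdt1 with 0.985, a regulator of the mitochondrial calcium uniporter with 321 coding bases. Edf1, a ribosome-associated factor, had 0.980, Naa38 0.979, Timm13, a chaperone of mitochondrial import, 0.975 and Fau 0.975. The list was chosen by this measure, so it is a description only.

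Across 77 members, the acetate folds without and with inhibitor, which share no library, had a Pearson correlation of 0.53 (Spearman 0.50). Members with low folds without inhibitor, such as Rps9, Rps4x, Rpl4 and Rpl10, were also among those that fell with inhibitor.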
